A study of Mus musculus with 6 samples.

Results

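The S phase and DNA replication genes are 33 genes whose products license replication origins, unwind and copy DNA, rebuild chromatin behind the fork and set the entry into S phase. They were chosen by function, and each was read from the probe set with 1 annotated gene symbol and the highest mean over 6 arrays. Of the 33 genes 32 were measured, among 18193 genes in all. Chaf1a had no probe set with that symbol in the annotation used here. The arrays hold bone marrow cells sorted as Lin-Sca1+CD150+CD48+, which the study calls committed progenitors, from 8 week old mice of a mixed background. In the double knockout (dKO) mice, MxCre c-myc f2 N-myc f2, the interferon-inducible Cre of the MxCre transgene deletes floxed c-Myc and N-Myc. The control mice carried the c-myc f2 N-myc f2 alleles without MxCre, so an effect of Cre itself cannot be told apart from the loss of the genes. Mice of both groups had 2 daily treatments with pI-pC, an interferon inducer, and were taken 3 days after the last. Mx-driven Cre acts in many interferon-responsive cells, so the marrow around the sorted cells can also have lost both genes. Each group has 3 arrays, each a pool of 2 control or 3 dKO mice. For control 1 the tissue label names LT-HSCs, although its title and its gate are those of the progenitors. Nothing in the labels says more of how the pools were made, so the p-values measure the spread between these pools.

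Before S phase, the origin recognition complex, CDC6 and CDT1 load the ring of MCM subunits onto DNA as an inactive helicase. Cyclin E with its kinase, and the CDC7 kinase, then help CDC45 and the GINS complex to join the ring, and polymerase alpha with primase starts each strand while PCNA, the sliding clamp, holds the polymerases in place. Transcription of most of these genes is switched on by E2F factors once RB proteins are phosphorylated, and MYC proteins are known to promote this step in dividing cells. The comparison asks which of these transcripts differed between progenitors of the control and the dKO mice.

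Promoter sequence was not used to choose these genes. RefSeq promoter windows, from 250 bases before to 50 after a gene's start (build GRCm38.p6), were at hand for 25 of the 32 genes. The E2F-type letters TTTCCCGC, TTTCGCGC, TTTGCCGC or TTTGGCGC, on either strand and with overlapping matches counted separately, were found in 12 of the 25, or 48.0%. The same letters were found in 2.6% of 27025 genes with a promoter window, in 3.81% of the 14452 of these measured on the arrays and in 3.57% of 28 genes of G2 and mitosis. The CCAAT letters, searched on both strands, were found in 68.0% of the 25 genes and in 85.7% of the 28 genes of G2 and mitosis. They were found in 41.1% of all genes with a window and in 42.0% of those on the arrays. The E-box letters CACGTG, to which MYC with MAX is known to bind, were found in 1 of the 25 genes, Fen1, or 4.0%. The shares were 8.09% of all genes with a window and 10.2% of those on the arrays. A match is only these letters within this window. A gene with several windows was counted if any of them held the letters. Fen1 has 2 windows, and only the one shown holds the E-box. The windows below show Mcm6 and Mcm5, with 3 and 2 E2F matches, Cdc6 and Cdt1, loaders with 1 match each and different values in the arrays, Ung, with no match, and Fen1 with its E-box. They lie at chr1:128359656-128359955, minus strand (Mcm6), chr8:75109259-75109558, plus strand (Mcm5), chr11:98907901-98908200, plus strand (Cdc6), chr8:122567765-122568064, plus strand (Cdt1), chr5:114130185-114130484, plus strand (Ung) and chr19:10203872-10204171, minus strand (Fen1). Capitals mark the E2F letters or, in Fen1, the E-box, and sequences run 5′ to 3′ on the gene's strand.
Mcm6: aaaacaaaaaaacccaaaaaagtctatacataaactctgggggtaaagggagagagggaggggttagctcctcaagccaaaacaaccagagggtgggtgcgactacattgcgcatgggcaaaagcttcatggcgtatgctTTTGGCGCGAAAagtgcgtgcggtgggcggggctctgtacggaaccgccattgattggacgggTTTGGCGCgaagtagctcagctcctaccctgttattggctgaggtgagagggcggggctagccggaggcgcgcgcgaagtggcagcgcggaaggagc
Mcm5: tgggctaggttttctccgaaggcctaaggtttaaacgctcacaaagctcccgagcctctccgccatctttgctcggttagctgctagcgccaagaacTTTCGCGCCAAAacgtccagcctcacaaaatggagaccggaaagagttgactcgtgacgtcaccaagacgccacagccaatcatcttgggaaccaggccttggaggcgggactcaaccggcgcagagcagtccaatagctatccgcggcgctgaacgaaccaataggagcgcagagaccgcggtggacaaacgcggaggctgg
Cdc6: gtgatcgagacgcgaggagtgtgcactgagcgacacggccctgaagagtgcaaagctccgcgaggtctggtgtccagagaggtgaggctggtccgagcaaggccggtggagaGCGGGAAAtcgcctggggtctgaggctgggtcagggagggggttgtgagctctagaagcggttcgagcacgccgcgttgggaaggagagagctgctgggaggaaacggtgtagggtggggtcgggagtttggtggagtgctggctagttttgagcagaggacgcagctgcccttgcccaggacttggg
Cdt1: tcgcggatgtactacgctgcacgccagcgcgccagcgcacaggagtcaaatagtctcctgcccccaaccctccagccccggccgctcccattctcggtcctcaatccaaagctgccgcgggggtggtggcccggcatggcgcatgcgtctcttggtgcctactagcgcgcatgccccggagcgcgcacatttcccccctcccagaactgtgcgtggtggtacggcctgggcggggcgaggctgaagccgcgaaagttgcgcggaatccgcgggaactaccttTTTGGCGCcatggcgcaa
Ung: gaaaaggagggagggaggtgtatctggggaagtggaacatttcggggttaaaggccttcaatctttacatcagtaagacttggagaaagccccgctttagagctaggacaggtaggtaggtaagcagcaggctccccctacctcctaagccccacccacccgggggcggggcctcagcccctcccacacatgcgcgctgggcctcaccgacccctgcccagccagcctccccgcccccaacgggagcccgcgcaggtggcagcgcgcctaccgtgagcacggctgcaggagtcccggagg
Fen1: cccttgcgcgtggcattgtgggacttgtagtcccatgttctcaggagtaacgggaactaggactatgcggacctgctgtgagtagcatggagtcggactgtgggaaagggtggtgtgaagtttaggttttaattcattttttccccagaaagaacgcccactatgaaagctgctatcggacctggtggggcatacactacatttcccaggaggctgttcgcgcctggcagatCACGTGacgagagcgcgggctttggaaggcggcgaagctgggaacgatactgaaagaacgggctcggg

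Values below are log2 RMA values, on which a difference of 1 is 2-fold; RMA is the authors' background correction, normalization and summary of each probe set. Array medians lay between 5.91 and 5.94. Myc stood between 10.47 and 10.95 in the control arrays and between 7.44 and 7.99 in the dKO arrays. It fell by 2.97 ± 0.21 (SE; limma, adjusted p = 0.00014). The 3 probe sets of Mycn had log2 fold changes of -5.27, -0.83 and 0.34, the brightest over 6 arrays being the one at -0.83. In the control arrays the one at -5.27 was the brightest, with a mean of 9.33 against 8.16. It fell by 5.27 ± 0.34 to a mean of 4.05 in dKO arrays (limma over all probe sets, adjusted p = 0.00029). The one at 0.34 was dim, with means of 4.07 in control and 4.41 in dKO. Of the genes of the sort gate, Cd48 stood at 11.23 ± 0.12 and 11.43 ± 0.23 and Slamf1, which encodes CD150, at 8.31 ± 0.52 and 9.10 ± 0.61 in control and dKO (mean ± SD, n = 3); Ly6a, which encodes Sca1, was not among the single-symbol probe sets. Of 6 measured genes of the gate and of stem or progenitor cells 1 fell and 1 rose: Flt3, a receptor of lymphoid and myeloid progenitors, fell by 2.73 ± 0.27 (adjusted p = 0.000668), and Gata2, a transcription factor of stem and progenitor cells, rose by 1.34 ± 0.24 (adjusted p = 0.0115). The mean level of the 6 ran from 9.37 to 9.58 in control and from 9.28 to 9.61 in dKO arrays. The mean level of 10 T and NK cell markers ran from 6.11 to 6.71 in control and from 7.63 to 7.95 in dKO arrays, and 6 of the 10 rose. For 6 megakaryocyte markers it ran from 7.66 to 7.93 and from 9.91 to 10.15, and 5 of the 6 rose. For 5 erythroid markers it ran from 6.58 to 6.87 and from 7.19 to 7.72, and 0 passed while 4 had an unadjusted p under 0.05. For 8 granulocyte and monocyte markers it ran from 8.27 to 9.21 and from 6.44 to 7.89, and 2 of the 8 fell. For 6 B and lymphoid progenitor markers it ran from 6.71 to 7.32 and from 5.71 to 6.03, and 2 of the 6 fell. These were Dntt (-4.99) and Rag1 (-2.28), while the median fold change of the 6 was -0.05. Of the other B and lymphoid markers, Cd79a, Cd79b and Pax5 had 0.40, 0.26 and 0.10 and Ebf1 had -0.21, none of which passed. RMA values have no zero, so no marker can be given as absent. Their part in the results below was not tested, and in sorted pools fewer cells of a type and less RNA per cell cannot be told apart. Control 1 and dKO 1 showed Xist signal (9.10 and 10.50 in its brightest probe set, against 5.03 to 5.86 in the other arrays).

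As a group the S phase genes differed little between control and dKO progenitors. By limma with Benjamini-Hochberg adjustment over all genes, 0 of 32 passed a threshold of 0.05, against 5.97% of all genes (3.12% higher and 2.85% lower in dKO). At an unadjusted p under 0.05 there were 5 (15.6%, against 18.2% of all genes): Ung, Cdt1, Gins1 and Mcm10 with lower values in dKO (9.14% of all genes were lower by this rule) and Ccne1 with higher ones (9.1%). There were 2 without control 1, 3 without control 3 and 3 without dKO 1. Under other settings of the test up to 2 genes passed, Ung in 5 such settings with Cdt1 or Mcm10 beside it in most. The median log2 fold change, dKO minus control, was -0.03 over the 32 genes and 0.05 over all genes. Over the 4574 brighter genes used as a background below it was -0.01, and 25% of them had an unadjusted p under 0.05. The quartiles of the 32 fold changes were -0.19 and 0.07, against -0.16 and 0.24 for all genes. The whole range was -0.61 (Cdt1) to 0.51 (Ccne1).

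By their brightest probe sets, these genes were measured closely enough to bound the difference for nearly all of them. The 95% interval of the fold change lay within 2-fold in both directions for 31 of the 32 genes, or 96.9%, against 79.7% of all genes. The exception was Cdt1, whose interval ran from -1.01 to -0.21. Differences smaller than 2-fold are not bounded by this count. It also leaves out other probe sets of these genes, which in 8 genes had opposite signs. By limma over all probe sets, others of Mcm10, Dtl and Gins3 had fold changes of -0.75 ± 0.16, -0.73 ± 0.33 and -0.61 ± 0.35 (SE). The median SD over 3 arrays was 0.13 in control and 0.17 in dKO for these genes, and 0.18 and 0.26 for all genes. All 32 had a mean above the median of all probe sets, and where only genes with a level above the lower quartile of the 32 were taken as background, chosen after the values were seen, 80.9% of 4574 genes had such an interval.

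**Figure D1:**
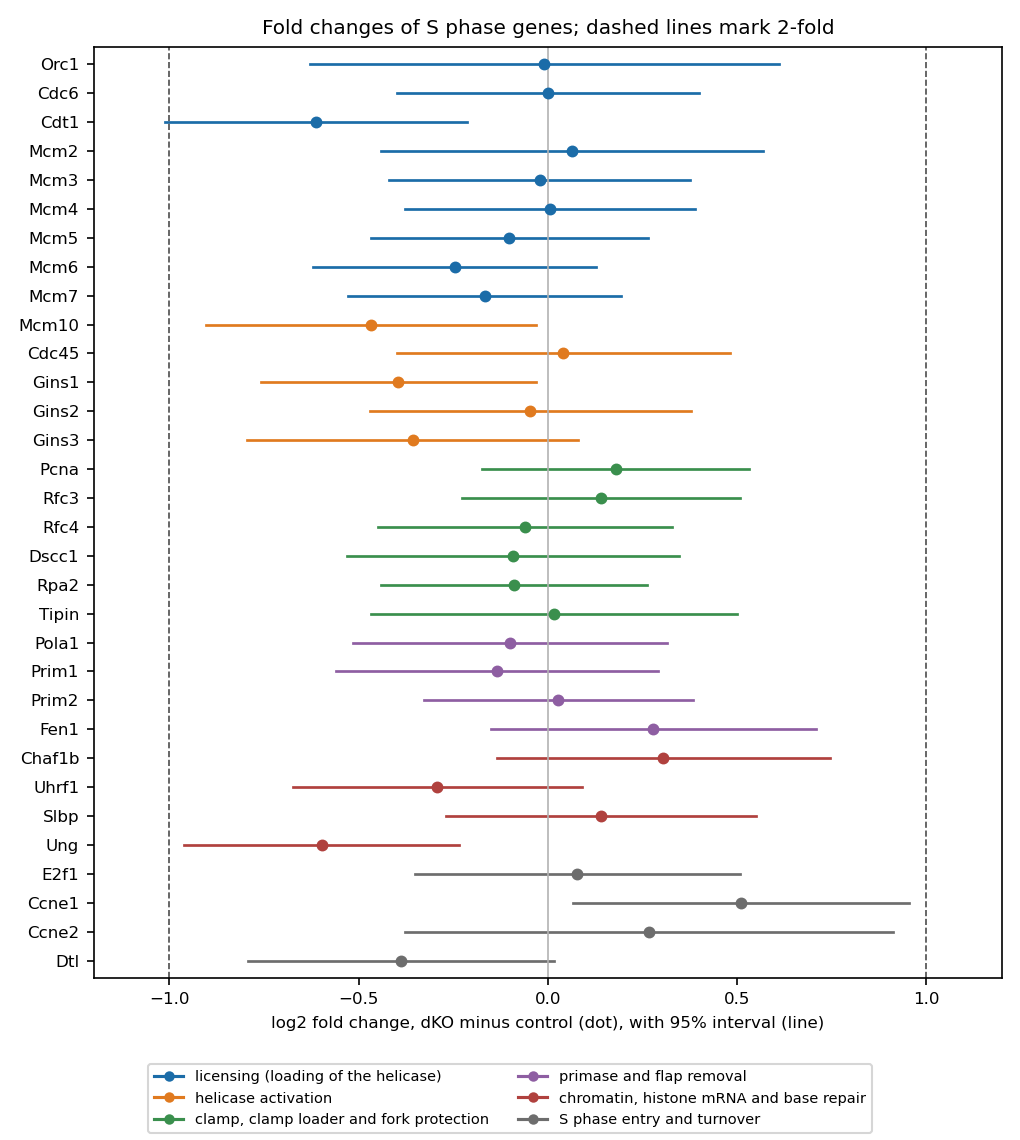
Log2 fold change (dKO minus control, dots) with its 95% limma interval (lines) for the 32 S phase genes, coloured by role; dashed lines mark 2-fold. The intervals of 31 genes stay between the dashed lines, that of Cdt1 reaches -1.01, and those of Ung, Cdt1, Gins1, Mcm10 and Ccne1 do not cross 0.

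Groups that did not overlap were more often lower than higher in dKO. For 11 of the 32 genes, or 34.4%, all 3 dKO arrays lay on one side of all 3 control arrays, against 23.4% of all genes and 34.5% of the 4574 brighter genes. In 9 of them, Cdt1, Mcm6, Mcm7, Mcm10, Gins1, Rpa2, Uhrf1, Ung and Dtl, the dKO arrays were lower (28.1%, against 10.7% of all genes and 18.3% of the brighter genes). In 2 of them, Pcna and Ccne1, the dKO arrays were higher (6.25%, against 12.7% and 16.3%). Most of these separations were small, as in Rpa2, which encodes a subunit of the protein that coats single-stranded DNA, with 9.52 to 9.64 in control and 9.48 to 9.51 in dKO arrays. The counts rest on the brightest probe sets. Other probe sets of Rpa2, Gins1 and Uhrf1 had fold changes of 0.21, -0.14 and -0.26 with groups that overlapped. Those of Mcm10 were also lower in every dKO array, and those of Cdt1, Mcm6, Mcm7 and Dtl were mixed.

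**Figure D2:**
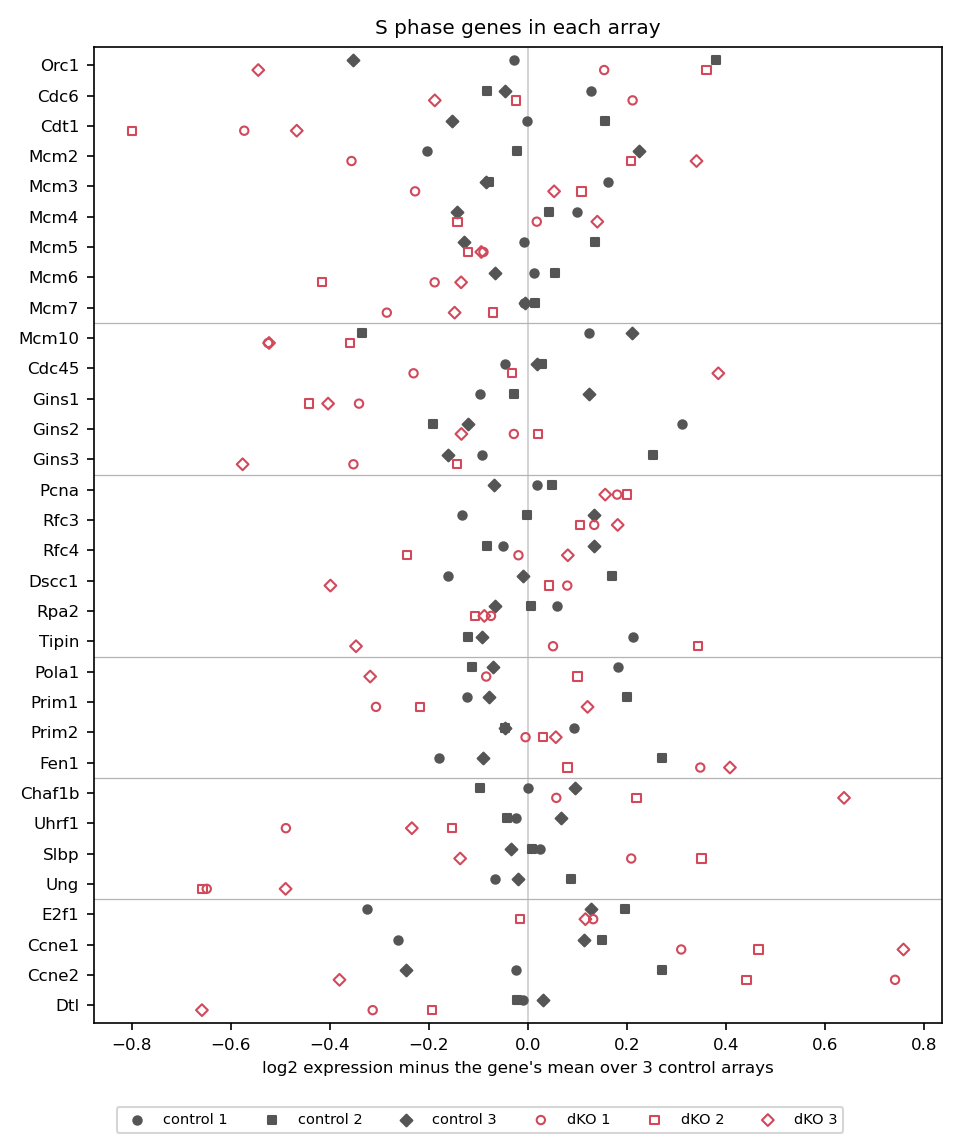
Each point is 1 array's log2 value of an S phase gene minus that gene's mean over the 3 control arrays (x axis); control arrays are filled grey and dKO arrays open red, shapes mark the replicate number, and lines separate the roles. Cdt1, Ung and Gins1 have their dKO arrays clearly left of control, Ccne1 right of it, and in 21 of the 32 genes the groups overlap.

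Among the licensing genes, the MCM subunits of the helicase ring stood close to their control level while the loader gene Cdt1 had the lowest fold change of all. The log2 fold changes of the 6 ring subunits lay between -0.25 (Mcm6) and 0.06 (Mcm2), with a median of -0.06, and all 6 intervals lay within 2-fold. Mcm4 stood at 10.73, 10.67 and 10.49 in control 1, 2 and 3 and at 10.65, 10.49 and 10.77 in dKO 1, 2 and 3, a log2 fold change of 0.01 ± 0.17 (SE). The arrays of the groups interleaved. Mcm6 stood at 11.73, 11.78 and 11.66 in control and at 11.53, 11.31 and 11.59 in dKO arrays, so that the groups did not overlap, but its fold change of -0.25 ± 0.17 did not pass (adjusted p = 0.52). Mcm7 was alike, with 11.89 to 11.91 in control and 11.61 to 11.83 in dKO arrays (-0.17 ± 0.16, adjusted p = 0.683). The 3 other probe sets of Mcm7 had fold changes from -0.48 to -0.23. Mcm2, Mcm3 and Mcm5 had overlapping groups and fold changes of 0.06, -0.02 and -0.10.

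CDC6 and CDT1 load the ring together, yet their transcripts had different values, and this difference between the genes was not tested. Cdc6 stood at 8.69, 8.48 and 8.52 in control and at 8.78, 8.54 and 8.38 in dKO arrays, a fold change of 0.00 with an interval from -0.40 to 0.40. Cdt1 stood at 10.65, 10.81 and 10.50 in control and at 10.08, 9.85 and 10.19 in dKO arrays. All dKO arrays of Cdt1 lay below all control arrays. Its fold change was -0.61 ± 0.18 with an adjusted p of 0.0858, so that it did not pass. A second Cdt1 probe set, with 8.77 to 9.10 in control and 8.12 to 8.25 in dKO arrays, had -0.70 ± 0.17 (limma over all 45037 probe sets, adjusted p = 0.0674). The third, near the low end of the scale at 2.27 to 2.88, had 0.18. Orc1, the largest subunit of the origin recognition complex, varied within both groups, from 6.65 to 7.38 in control and from 6.46 to 7.36 in dKO arrays. Its fold change was -0.01 ± 0.28, and its other probe set, which had -0.39, was lower in every dKO array.

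Genes that turn the loaded ring into an active helicase had a median fold change of -0.36 over 5 genes, the lowest of the 6 roles, with 0 of 5 past the threshold. Mcm10, a factor needed to start unwinding, stood at 8.88, 8.42 and 8.96 in control and at 8.23, 8.39 and 8.23 in dKO arrays. The groups were separated by a narrow gap, since control 2 lay close to dKO 2. The fold change was -0.47 ± 0.19 (adjusted p = 0.235). The other probe sets of Mcm10 separated the groups more widely. One had 8.22, 8.27 and 8.29 in control and 7.53, 7.53 and 7.46 in dKO arrays, and fell by 0.75 ± 0.16 (limma over all probe sets, adjusted p = 0.0373). It was the only one of the 75 probe sets of these genes that passed over all probe sets, of which 3.6% passed. The other Mcm10 probe set had -0.63 ± 0.16 (adjusted p = 0.0865).

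Of the 4 GINS subunits, 3 are among the 32 genes. Gins1 stood at 9.43, 9.50 and 9.66 in control and at 9.19, 9.09 and 9.13 in dKO arrays, a fold change of -0.40 ± 0.16 (adjusted p = 0.229), and all its dKO arrays were the lower ones. Gins3 had -0.36 ± 0.19 with groups that overlapped, and Gins2 had -0.05 ± 0.19. Gins4, measured in a wider list, had -0.08 ± 0.16 with groups that overlapped. Cdc45, whose product joins the ring with GINS, had 7.14 to 7.21 in control and 6.95 to 7.57 in dKO arrays, a fold change of 0.04 ± 0.20 with the wider spread in dKO. The differences between these subunits were not tested against each other.

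By their brightest probe sets, the genes of the clamp, its loaders and fork protection had fold changes between -0.09 and 0.18. Pcna, the clamp, stood at 11.96, 11.99 and 11.87 in control and at 12.12, 12.14 and 12.10 in dKO arrays. Every dKO array was the higher, by a fold change of 0.18 ± 0.16 that did not pass (adjusted p = 0.644). The clamp loader subunits Rfc3 and Rfc4 had 0.14 and -0.06, and Dscc1, of an alternative clamp loader that acts in cohesion of sister chromatids, had -0.09. The other probe sets of Rfc3, Rfc4 and Dscc1 had 0.18, -0.29 and -0.32. That of Rfc3 was higher and that of Dscc1 lower in every dKO array, and the groups overlapped in that of Rfc4. Tipin, which protects the paused fork with its partner Timeless, had 0.02 ± 0.21 with dKO arrays from 9.98 to 10.67.

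Primase and flap removal genes were alike in showing no separation of the groups. Pola1, the catalytic subunit of polymerase alpha, had -0.10 ± 0.18, and the primase subunits Prim1 and Prim2 had -0.13 ± 0.19 and 0.03 ± 0.16. Another Prim2 probe set, nearly as bright with a mean of 8.10 against 8.20, had -0.35 ± 0.21, and the third had 0.17. The other probe sets of Pola1 and Prim1 had -0.23 and -0.04. In all of these the groups overlapped. Fen1, the nuclease that removes the flaps of Okazaki fragments, stood at 11.63, 12.08 and 11.72 in control and at 12.16, 11.89 and 12.22 in dKO arrays. The groups overlapped through control 2 and dKO 2, with a fold change of 0.28 ± 0.19. Its other probe set had -0.20.

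Ung, the uracil DNA glycosylase that removes uracil left in new DNA, had the smallest p of the 32 genes. It stood at 10.18, 10.33 and 10.23 in control and at 9.60, 9.59 and 9.76 in dKO arrays. The highest dKO array lay below the lowest control array by more than the range of either group. The fold change was -0.60 ± 0.16, or 1.51-fold lower, with an adjusted p of 0.0659, and 1 probe set measured the gene. Uhrf1, which carries DNA methylation over to the new strand, had 10.31 to 10.42 in control and 9.87 to 10.20 in dKO arrays (-0.29 ± 0.17, adjusted p = 0.432). Chaf1b, a subunit of the histone chaperone at the fork, had 0.31 ± 0.20, most of it from dKO 3 at 8.74, while dKO 1 and 2 stood at 8.16 and 8.32 and control at 8.01 to 8.20. Slbp, which binds the mRNAs of replication histones, had 0.14 ± 0.18.

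Among the regulators of entry into S phase, cyclin E genes and E2f1 did not have lower values in dKO. Ccne1, cyclin E1, stood at 7.57, 7.98 and 7.94 in control and at 8.14, 8.30 and 8.59 in dKO arrays. All dKO arrays were the higher, with a fold change of 0.51 ± 0.20, the highest of the 32 genes (adjusted p = 0.2). Its other probe set had 0.30 with overlapping groups. Ccne2, cyclin E2, spread widely in dKO, at 7.41, 7.11 and 6.28 against 6.42 to 6.93 in control (0.27 ± 0.29). E2f1, the activating E2F factor, had 0.08 ± 0.19, and its 3 probe sets lay between 0.08 and 0.13. Dtl, the adaptor that directs CDT1 to destruction on PCNA, stood at 9.01, 9.00 and 9.05 in control and at 8.71, 8.83 and 8.37 in dKO arrays, with a fold change of -0.39 ± 0.18 (adjusted p = 0.301). All 6 probe sets of Dtl had negative fold changes, from -0.75 to -0.28, and 0 of them passed.

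**Figure D3:**
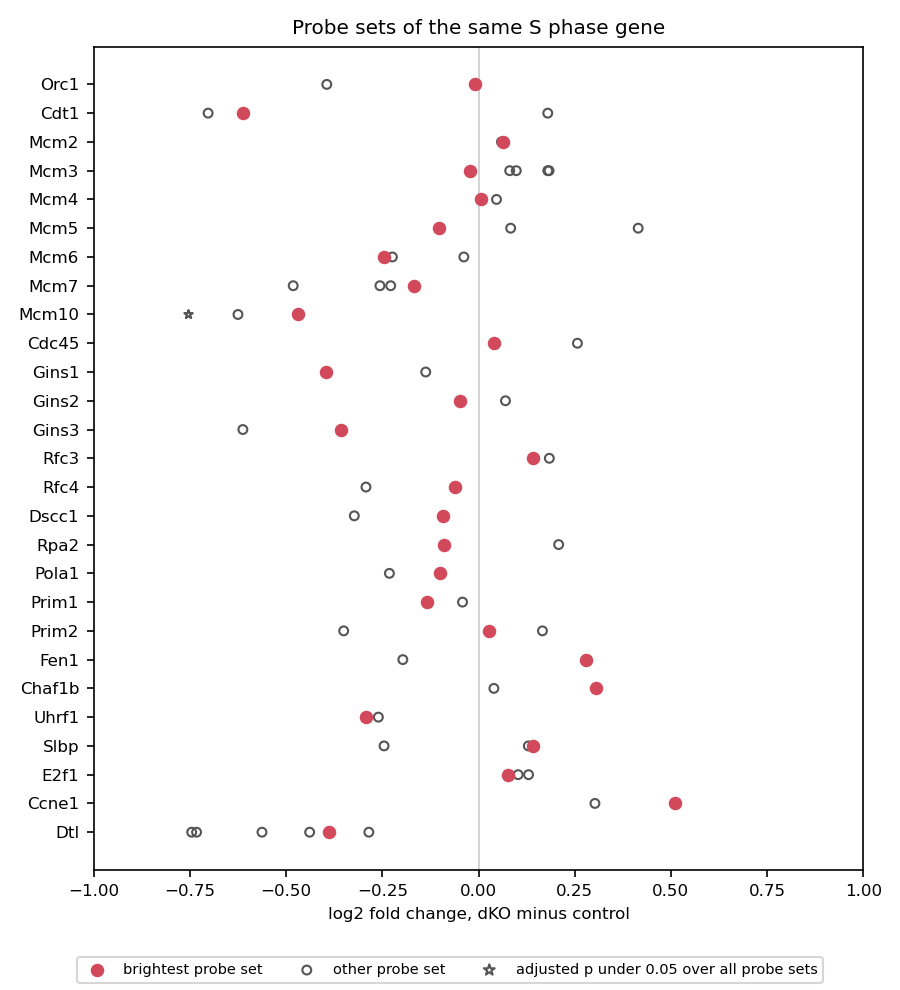
Log2 fold change (dKO minus control, x axis) of every probe set of the 27 S phase genes with several probe sets; filled points are the brightest probe sets used for the gene, open points the others, and the star the probe set that passed over all probe sets. The 3 probe sets of Mcm10 and the 6 of Dtl all lie left of 0, those of E2f1 lie within 0.08 to 0.13, and in 8 genes probe sets lie on both sides of 0.

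The promoter letters can be set beside these values. The 12 genes with E2F letters had fold changes from -0.61 to 0.14 with a median of -0.13, and the 13 with a window but without the letters from -0.60 to 0.51 with a median of 0.06. Both ranges hold a gene near the lower end (Cdt1 and Ung). Cdc6 and Cdt1, each with 1 match, had 0.00 and -0.61. Mcm6, with the 3 matches shown, had -0.25, and Fen1, with the E-box, had 0.28. No test was made of these groupings.

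Across arrays no pool stood apart in its S phase genes. The median deviation of the 32 genes from their own 6-array means was 0.08, 0.05 and -0.01 in control 1, 2 and 3, and -0.03, 0.01 and -0.05 in dKO 1, 2 and 3. The groups did not separate strongly, since dKO 2 lay above control 3. Control 2 held the highest value for 10 of the 32 genes and dKO 3 the lowest for 9, while dKO 3 also held the highest for 7. For 31 genes of G2, mitosis and cytokinesis the same median ran from -0.06 to 0.18 in control and from -0.25 to -0.03 in dKO arrays, with dKO 3 the lowest. Of these 31 genes 2 fell and 0 rose, Kif23 (-0.86 ± 0.17, adjusted p = 0.0193) and Racgap1 (-0.80 ± 0.17, adjusted p = 0.0272), which act in cytokinesis, beside 2.85% of all genes that fell. Their median fold change was -0.17, against -0.03 for the S phase genes; the lists come from the same arrays and their difference was not tested. Both calls were lost without control 1, control 2, dKO 1 or dKO 2, and that of Racgap1 also without control 3 (highest adjusted p 0.09 and 0.113). Racgap1 also lost it with the replicate number as a block (0.0502) and with the mean of its probe sets (0.107).

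**Figure D4:**
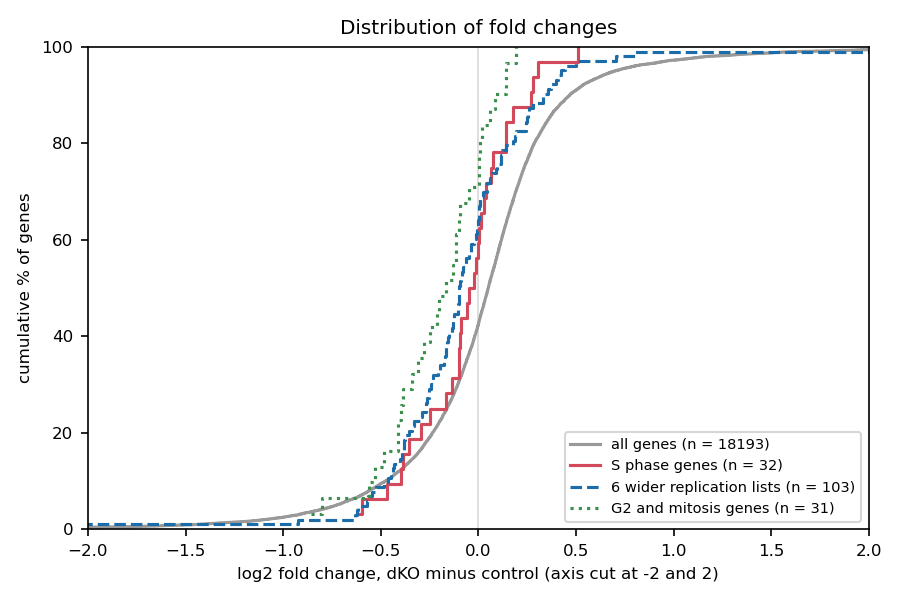
Cumulative share of genes (y axis, %) by log2 fold change, dKO minus control (x axis, cut at -2 and 2), for all 18193 genes, the 32 S phase genes, 103 genes of 6 wider replication lists and 31 genes of G2 and mitosis. The S phase genes span -0.61 to 0.51 and cross the 50% line at a median of -0.03, the G2 and mitosis genes at -0.17.

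Of 103 measured genes in 6 wider lists of replication genes 1 rose and 2 fell by the same test, with a median fold change of -0.10, beside 3.12% of all genes that rose and 2.85% that fell. None of 18 further genes of origin licensing and firing passed, and 2 had an unadjusted p under 0.05 (11.1%, against 18.2% of all genes). They were Mcmbp, which binds the MCM ring (-0.62 ± 0.17, adjusted p = 0.0763), and the helicase gene Recql4 (-0.56 ± 0.18, adjusted p = 0.127). All 3 probe sets of Mcmbp lay between -0.62 and -0.55. Of 23 polymerase and fork genes 1 fell, Rnaseh2a, the catalytic subunit of the enzyme that removes RNA from DNA hybrids. It stood at 8.60, 8.88 and 8.34 in control and at 7.78, 7.50 and 7.78 in dKO arrays, so that the groups did not overlap. Rnaseh2a fell by 0.92 ± 0.20 (adjusted p = 0.0247) and lost its call without control 1, control 2, dKO 1 or dKO 2 (adjusted p 0.06 to 0.107) and with the replicate number as a block (0.0532).

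Of 8 measured genes of nucleotide supply 1 fell, Dctd, the deaminase that turns dCMP into dUMP for thymidylate synthesis. It stood at 7.70, 7.29 and 7.58 in control and at 4.30, 5.70 and 5.69 in dKO arrays, the lowest value in dKO 1. Dctd fell by 2.29 ± 0.35 (adjusted p = 0.00553), and it passed without any single array (adjusted p 0.00323 to 0.022). Rrm2, the small subunit of ribonucleotide reductase, had 0.37 ± 0.16 with its dKO arrays above control (adjusted p = 0.263). Rrm1, Tyms and Tk1 had 0.06, 0.12 and -0.24.

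In the list of cyclin, CDK and E2F control, 1 of 29 genes rose and 0 fell. Cdkn1a encodes p21, which inhibits cyclin-dependent kinases and binds PCNA. It stood at 5.91, 7.40 and 6.21 in control and at 10.78, 10.10 and 10.67 in dKO arrays, and its second probe set had 6.53 to 6.93 and 9.44 to 10.00. The gap between the groups exceeded the range of either. Cdkn1a rose by 4.01 ± 0.36 (adjusted p = 0.000457), while Pcna, E2f1 and the cyclin E genes in the same arrays stayed within the values given above. Rbl2, an RB family member that represses E2F targets in resting cells, had 0.80 ± 0.21 (adjusted p = 0.0624), and its second probe set rose by 0.88 ± 0.19 over all probe sets (adjusted p = 0.0387). E2f8, a repressive E2F factor, had 0.71 ± 0.19 (adjusted p = 0.0657), with 9.67 to 10.05 in control and 10.37 to 10.79 in dKO arrays. Both genes were higher in 3 of 3 dKO arrays, did not pass, and were called in some of the other settings tried. In this list 5 of 29 genes had an unadjusted p under 0.05 (17.2%, against 18.2% of all genes), 3 of them higher and 2 lower in dKO. The lower ones were Skp2 (-0.57, limma adjusted p = 0.234), with groups that overlapped, and Cdkn1b (-0.39, limma adjusted p = 0.229), with groups that did not.

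The remaining lists held no calls by limma. Of 10 genes of chromatin behind the fork 0 passed and 0 had an unadjusted p under 0.05, with the smallest p for the histone chaperone genes Asf1b (0.42 ± 0.21) and Asf1a (0.35 ± 0.20). Of 15 genes of the S phase checkpoint and fork repair 0 passed and 2 had an unadjusted p under 0.05 (13.3%, against 18.2% of all genes). They were Rad1, of the checkpoint clamp (-0.54 ± 0.20, adjusted p = 0.186), and Mcm3ap, whose product binds MCM3 and acts in export of mRNA (0.44 ± 0.19, adjusted p = 0.261).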

How the data were processed

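The deposited values are log2 expression values of Affymetrix mouse arrays. Per the submitters' processing notes they were computed with RMA, whose version is not given in the sources used here. Per the labels' protocols, RNA went through 2 rounds of amplification. Levels of single genes were not set against each other, but genes were grouped by level for 1 background set. RMA compresses differences of dim probe sets. Of 45101 probe sets 34945 had 1 gene symbol and 34741 of these were matched by gene identifier to RefSeq (GRCm38.p6), which updated symbols. Each gene was taken by its brightest such probe set (18193 genes).

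Groups came from the titles. limma 3.58.1 in R 4.3.3 (lmFit, eBayes) compared dKO with control, two-sided, and p-values were adjusted by Benjamini-Hochberg across all 18193 genes. SD and n are over 3 arrays, SE and intervals from the fit. A second fit over all 45037 probe sets without controls gave the values of single probe sets. The number of arrays limits the precision. Members, lists, motifs and alternatives were chosen with earlier results of these data known; members were all named, and from each wider list the genes past the threshold, otherwise the 2 with the smallest p. Rrm1, Rrm2, Tyms, Tk1, Rbl2, E2f8, Skp2 and Cdkn1b lie outside this rule and were chosen after their values were seen. Gins4, the remaining GINS subunit, also lies outside it. Deviations of same-numbered arrays from group means correlated at 0.0561, -5e-04 and 0.0188 over genes, so the numbers were not taken as pairs. Figures were drawn with matplotlib 3.10.9.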

Additional observations from a re-analysis of the deposited data

How the results depend on the processing

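Of the S phase genes 0 were called. The number called was 1 with the filter on dim genes (Ung, adjusted p = 0.0422), 2 with the mean of a gene's probe sets (Mcm10, adjusted p = 0.0364, and Ung, 0.0408), 2 with the intensity trend (Ung, 0.0215, and Cdt1, 0.0249), 2 with array weights (0.0243 and 0.0482) and 2 at a threshold of 0.10. It was 0 under the other settings, leaving out each array included, and with the replicate block, which left 3 genes at an unadjusted p under 0.05 and 999 calls over all genes. The median fold change of the S phase genes ran from -0.0841 (without dKO 2) to -0.0301 (without control 1) with single arrays left out and was 0.00 with the mean of probe sets, and the sign of uncalled genes turned for up to 7 of 32 (without dKO 3). Genes called in the wider lists numbered 3, and 6 with the filter on dim genes, the mean of probe sets or the threshold of 0.10, and 5 with renewed quantile normalization, the intensity trend or array weights; they were 2 to 4 without single arrays. Over all genes 1086 were called, 1697 with array weights, 578 without control 1 and dKO 1 together, and 572 to 1081 without single arrays (572 without control 2). Signal over background limits the dim probe sets, such as the third of Cdt1.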
